A study of Mus musculus with 2 samples.

Results

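The genes described here are Relb, Nfkbia, Tnfaip3, Nr4a3, Jund and Klf6, which belong to the NF-kappaB pathway and to the genes that T cells switch on when activated. They are 6 of the 8249 genes of an expression matrix from lymphomas of L-DKO mice, a strain tied by the series title to high levels of E proteins, transcription factors of early T cell development. They were chosen by symbol, from the difference between the same 2 tumours that is described below, so their values are a description and test nothing. The libraries were made by RNA sequencing of a tumour of a Peyer's patch, a lymphoid follicle cluster of the gut wall, from a mouse aged 26 weeks, and of a tumour of the thymus from a mouse aged 30 weeks. They are called the gut tumour and the thymus tumour here. Both tumours were negative for the CD1d tetramer, a reagent that stains invariant natural killer T cells, and both mice carried the L-DKO genotype, whose alleles are not spelled out in the sources used here. No control tissue, untreated animal or pre-malignant cell entered the comparison. Each group is 1 library, so site, mouse and age cannot be told apart, there is no replicate error, and no test or p-value is given. Per the labels' protocols the RNA came from lysed tumour tissue, whereas the design text speaks of sorted cells. The labels name the source as lymphoma cells from each tumour, and the purity of the samples is not settled. In samples of mixed cells, fewer cells of a type and less RNA per cell cannot be told apart.

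NF-kappaB is a family of dimeric transcription factors that wait in the cytoplasm, held there by inhibitor proteins of the IkappaB family. Signals from the antigen receptor, from receptors of the TNF family or from microbial sensors activate a kinase complex, IKK, which marks the inhibitor for destruction and frees the dimer. The classical route releases dimers with RelA, and the alternative route releases RelB bound to p52. The classical route induces its own brakes, among them the inhibitor IkappaB alpha and the ubiquitin-editing enzyme A20. Antigen receptor signals also induce the NR4A nuclear receptors and AP-1 factors, and all of these are studied in T cell activation, tolerance and lymphoma.

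The promoters of Nfkbia and Tnfaip3 are shown because these genes encode the brakes of NF-kappaB and stood on opposite sides of the comparison. The promoter of Nr4a3 is shown because it had the widest difference of the 6 on the log2(FPKM + 1) scale. Each sequence is from RefSeq, build GRCm38.p6, and runs from 250 bases before the gene start to 50 after it, on the gene's own strand. Capitals mark matches to the NF-kappaB consensus in Nfkbia and Tnfaip3 and to TGACG, which is part of the cyclic AMP response element, in Nr4a3, on either strand.
Nfkbia, chr12:55492598-55492897, minus strand: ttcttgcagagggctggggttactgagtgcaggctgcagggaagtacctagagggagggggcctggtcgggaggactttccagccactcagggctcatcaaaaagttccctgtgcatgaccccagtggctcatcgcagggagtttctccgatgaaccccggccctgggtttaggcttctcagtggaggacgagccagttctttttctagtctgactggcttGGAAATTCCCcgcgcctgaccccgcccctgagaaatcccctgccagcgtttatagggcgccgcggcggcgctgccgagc
Tnfaip3, chr10:19015361-19015660, minus strand: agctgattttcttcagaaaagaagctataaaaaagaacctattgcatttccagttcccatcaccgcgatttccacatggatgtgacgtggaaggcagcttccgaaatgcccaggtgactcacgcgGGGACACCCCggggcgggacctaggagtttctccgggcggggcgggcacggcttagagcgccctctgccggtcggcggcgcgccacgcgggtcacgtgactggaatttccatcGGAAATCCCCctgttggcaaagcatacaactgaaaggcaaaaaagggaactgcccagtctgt
Nr4a3, chr4:48045055-48045354, plus strand: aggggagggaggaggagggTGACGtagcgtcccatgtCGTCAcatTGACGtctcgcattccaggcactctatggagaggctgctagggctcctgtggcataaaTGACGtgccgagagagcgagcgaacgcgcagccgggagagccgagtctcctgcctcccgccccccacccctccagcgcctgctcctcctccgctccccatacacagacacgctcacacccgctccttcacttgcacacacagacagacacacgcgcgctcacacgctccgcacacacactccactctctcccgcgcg

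RefSeq promoter windows were matched for 5 of the 6 genes, with 6 windows in all, since Tnfaip3 has 2. The NF-kappaB consensus was present in 8.46% of 32851 windows of the same length. The Nfkbia window held 1 match, whose first base lies 29 bases before the gene start, and the Tnfaip3 window printed above held 2, starting 125 and 12 bases before it. The windows of Nr4a3, Jund and Klf6 and the other window of Tnfaip3 held 0. TGACG was found 4 times in the Nr4a3 window and 1 time in the printed Tnfaip3 window, and in 20.8% of all windows. The full cyclic AMP response element TGACGTCA, which contains TGACG, was found in 1.79% of all windows and in none of the 6 windows of these genes. The AP-1 motif TGANTCA was found in 1 member window, that of Tnfaip3 printed above, against 7.81% of all windows, and the serum response element in none, against 1.63%. The E box CANNTG, the kind of sequence that E proteins bind, was found in the windows of Nr4a3, Jund, Klf6 and in the printed window of Tnfaip3, and not in that of Nfkbia, against 72.3% of all windows. Among the E boxes CAGCTG was found in Jund (16.3% of all windows) and CACCTG in Tnfaip3 (20.2%). The GC box GGGCGG was found in the windows of Nfkbia, Nr4a3 and Klf6 and 3 times in that of Tnfaip3, against 35.7% of all. The TATA box letters TATAAA were found in the printed Tnfaip3 window, starting 225 bases before the gene start. In the Nfkbia window they were on the other strand, printed as tttata, with the first base 19 bases after the gene start. They were present in 13.6% of all windows. Every motif was searched on both strands. A match describes letters in a window and not a bound site.

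Of the 6 genes, 5 were higher in the thymus tumour and 1, Tnfaip3, was higher in the gut tumour, and all 6 were at least 4-fold apart. Levels are FPKM, fragments scaled by transcript length and by mapped fragments, so they can be set side by side between genes. Differences are log2(FPKM + 1) in the gut tumour minus the thymus tumour, and 2 or more in either direction, 4-fold on that scale, was taken as apart. The filter kept 8245 genes, those reaching 1 FPKM in either library, and of these 19.9% were that far apart, 7.84% higher in the gut tumour and 12.0% higher in the thymus tumour. Since the 6 genes were chosen from this contrast, nothing is read from their count against those shares. The median difference of the 6 was -3.28, and that of all genes 0.05. In the gut tumour 4 of the 6 genes were under 5 FPKM, and in the thymus tumour 1 was. The depth of each library is unknown, so low values carry an error that cannot be given. The log2 scale was inferred from the values, as no source states it.

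**Figure D1:**
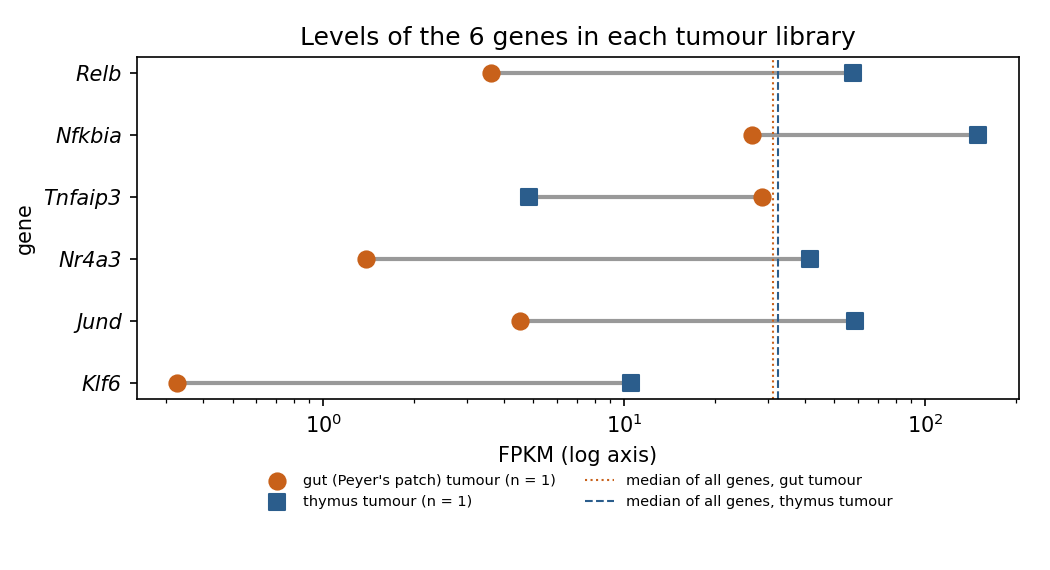
FPKM on a log axis for each of the 6 genes, with a circle for the gut tumour and a square for the thymus tumour (1 library each), joined by a bar. Vertical lines give the median of all genes, 31.2 and 32.6 FPKM, and Tnfaip3 is the gene whose circle lies to the right of its square.

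Relb, the NF-kappaB subunit of the alternative route, was at 3.61 FPKM in the gut tumour and 57.6 FPKM in the thymus tumour, a ratio of 16.0 on the FPKM scale and a difference of -3.67. It passed from percentile 7.2 of gene levels in the gut tumour to percentile 66.9 in the thymus tumour, and ranked 211 among genes ordered by how much higher they were in the thymus tumour. The other subunits lay closer together. Nfkb2, whose product p100 is processed to p52, the partner of RelB, was at 3.55 and 16.2 FPKM in the gut and thymus tumours, with a difference of -1.92 that fell short of the threshold. With a pseudocount of 0.1 in place of 1 it passed. Rela, the main subunit of the classical route, was at 11.1 and 13.6 FPKM, and Nfkb1, which encodes p105 and p50, was at 48.3 and 41.7 FPKM. Their differences were -0.26 and 0.21, and that of Rela became positive with libraries rescaled to the same total (0.24) or with the authors' standard scores (0.44). Relb stood at 0.324 times the FPKM of Rela in the gut tumour and at 4.24 times in the thymus tumour. Rel, which encodes c-Rel, was on the list of 5 subunits and was not among the 4 measured.

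Relb is also prominent in dendritic cells and B cells, and the measured B cell markers were higher in the thymus tumour too. Of the B cell markers 2 of 8 were measured, Cd79b and Igkc, and both were at least 4-fold higher in the thymus tumour, with a summed level of 1471 FPKM in the gut tumour and 10052 in the thymus tumour. Of the MHC class II markers 4 of 5 were measured and all 4 were at least 4-fold higher in the thymus tumour, with sums of 287 and 1856 FPKM. The macrophage markers, 3 of 8, summed to 277 and 758 FPKM, and the neutrophil receptor Cxcr2, 1 of 6, was at 10.1 and 84.8 FPKM. With libraries rescaled to the same total, Cd79b and the class II genes H2-Ab1 and H2-Eb1 were no longer 4-fold apart, H2-Eb1 likewise with standard scores, while the T cell markers Cd3g (2.11) and Cd5 (2.03) became at least 4-fold higher in the gut tumour with the same total. The erythroid markers, 4 of 8, summed to 2425 and 96390 FPKM. All 9 T cell markers were measured in both tumours, with sums of 4096 and 2660 FPKM. As deposited 8 of them were higher in the gut tumour and 0 were at least 4-fold apart. The exception was Cd3e, higher in the thymus tumour, at 172 and 561 FPKM (-1.70). Fn1, 1 of 5 fibroblast markers, was at 16.0 and 84.8 FPKM, Pecam1, 1 of 4 endothelial markers, at 157 and 80.3 FPKM, and Epcam, 1 of 4 epithelial markers, at 65.1 and 59.6 FPKM. The 5 dendritic cell markers and the B cell markers Ms4a1 and Pax5 were not among the genes measured. No gene of the matrix is at exactly 0. The part of these cells in the values of the 6 genes was not tested.

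Nfkbia and Tnfaip3, both inhibitors of NF-kappaB, stood at nearly the same level in the gut tumour and far apart in the thymus tumour. Nfkbia, which encodes IkappaB alpha, was at 26.6 FPKM in the gut tumour and 150.5 FPKM in the thymus tumour, a ratio of 5.66 and a difference of -2.46. Its difference was -1.93, short of the threshold, with libraries rescaled to the same total. Tnfaip3, which encodes A20, was at 28.7 FPKM in the gut tumour and 4.84 FPKM in the thymus tumour, 5.93-fold higher in the former, with a difference of 2.35. Its difference was 1.78, also short of the threshold, with a pseudocount of 5. The ratio of Nfkbia to Tnfaip3, which does not depend on how the libraries are scaled, was 0.927 in the gut tumour and 31.1 in the thymus tumour. Nfkbia was thus the highest of the 6 genes in the thymus tumour, where Tnfaip3 was the lowest, and Tnfaip3 was the highest in the gut tumour.

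The other measured inhibitors were mixed. Of 10 listed genes 6 were measured, with a median difference of -1.07. Of these 0 were at least 4-fold higher in the gut tumour and 2, Nfkbia and Nkiras1, in the thymus tumour. Without Nfkbia the median of the other 5 was -0.48, and of these Nkiras1 alone was at least 4-fold apart. Nkiras1, a Ras-like protein that binds IkappaB proteins and slows their breakdown, was at 22.6 and 320.0 FPKM in the gut and thymus tumours (-3.77). Nfkbib, which encodes IkappaB beta, was at 64.2 and 46.6 FPKM (0.45), so that Nfkbia stood at 0.414 times Nfkbib in the gut tumour and at 3.23 times in the thymus tumour. Nkrf, a repressor of NF-kappaB targets, was at 3.50 and 13.1 FPKM (-1.65), and the nuclear inhibitor Nfkbiz at 16.6 and 23.5 FPKM. The difference of Nfkbiz, -0.48, became positive with libraries rescaled to the same total (0.04) or with standard scores (0.12). Commd1, which promotes the breakdown of RelA, was at 64.4 and 39.4 FPKM (0.70).

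Genes for A20 partners and deubiquitinases lay on both sides. Of 15 listed 12 were measured, 6 higher in the gut tumour and 6 in the thymus tumour. Without Tnfaip3 the other 11 divided into 5 and 6, with a median of -0.70. Tnfaip3 was at least 4-fold higher in the gut tumour, and Rnf11 and Otud7b were at least 4-fold higher in the thymus tumour. Rnf11, a subunit of the A20 editing complex, was at 2.74 and 27.9 FPKM (-2.95). Otud7b, a deubiquitinase of the alternative route, was at 6.79 and 30.4 FPKM (-2.01), which fell below the threshold with a pseudocount of 5, with the same total or with standard scores. The A20 partners Itch, a ubiquitin ligase, and Tax1bp1, an adaptor, were at 38.5 and 76.9 FPKM (-0.98) and at 86.8 and 46.3 FPKM (0.89), and Otub1 was at 43.6 and 71.3 FPKM (-0.70). The deubiquitinases Cyld, Usp11 and Usp15 were picked after their values were seen. Cyld, which also restrains NF-kappaB, was at 6.72 and 28.3 FPKM (-1.92), past 4-fold with a pseudocount of 0.1. Usp11 was at 43.8 and 10.6 FPKM (1.95), on the side of Tnfaip3, and passed 4-fold with a pseudocount of 0.1, the same total (2.46) or standard scores (2.54). Usp15 was at 63.6 and 46.3 FPKM (0.45). The median of the 12 genes, Tnfaip3 included, was -0.25, and its sign changed with the same total (0.29) or with standard scores (0.39).

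Nr4a3, an orphan nuclear receptor induced by antigen receptor signals, had the widest difference of the 6 genes on the log2(FPKM + 1) scale. By the plain ratio of FPKM Klf6 was wider, and with a pseudocount of 5 Relb and Nr4a3 were both at -2.86. It was at 1.39 FPKM in the gut tumour and 41.4 FPKM in the thymus tumour, a ratio of 29.8 and a difference of -4.15. It ranked 131 among genes ordered by how much higher they were in the thymus tumour, and lay at percentile 2.06 of levels in the gut tumour. Nr4a1, which encodes Nur77 and is the other family member measured, was at 5.50 and 19.8 FPKM, a difference of -1.68 in the same direction that did not reach 4-fold. Nr4a2, the third of the family, was not among the genes measured.

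Egr2, which antigen receptor signals also induce, lay on the other side, at 206 FPKM in the gut tumour and 30.1 FPKM in the thymus tumour (2.74). Of the 6 listed EGR genes and their NAB corepressors 5 were measured, with a median difference of 0.68, 2 at least 4-fold higher in the gut tumour and 0 in the thymus tumour. Nab2, a corepressor of EGR factors, was at 121 and 7.37 FPKM (3.86), and Egr1 at 37.9 and 23.3 FPKM (0.68). Egr3 was at 5.62 and 7.83 FPKM (-0.41) and Nab1 at 41.8 and 42.6 FPKM (-0.03), and both became positive with the same total (0.06 and 0.50) or with standard scores (0.42 and 0.41). Genes known for induction by the same receptor were thus found far apart in both directions.

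**Figure D2:**
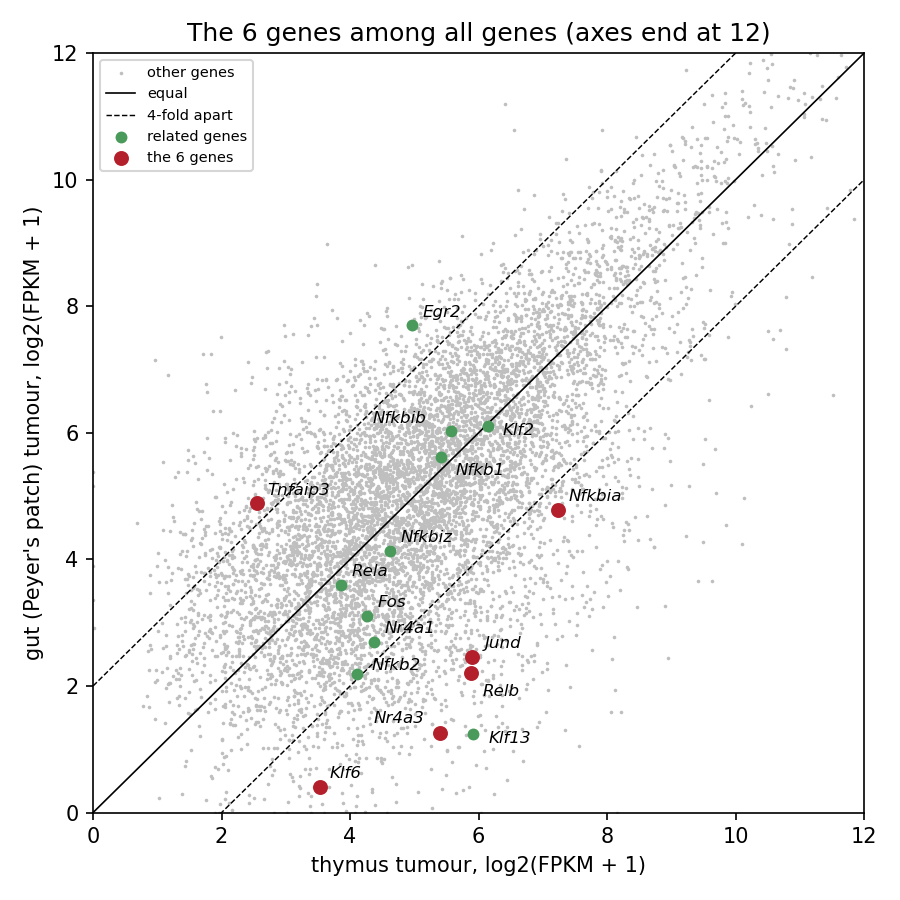
Each point is a gene, with log2(FPKM + 1) in the thymus tumour on the horizontal axis and in the gut tumour on the vertical axis, 1 library each and both axes ending at 12. The solid line marks equal levels and the dashed lines 4-fold differences. Of the 6 genes in red, 5 lie below the lower dashed line and Tnfaip3 above the upper one, while Rela, Nfkb1, Nfkbib and Klf2 in green lie near the solid line.

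Jund, a subunit of AP-1 that restrains growth in several cell types, was at 4.52 FPKM in the gut tumour and 58.6 FPKM in the thymus tumour, a ratio of 13.0 and a difference of -3.43. Its levels lay close to those of Relb in both libraries. In GENCODE M21 Jund is the single-exon gene of the 6 and the one that overlaps a gene on the other strand, the antisense transcript Gm11175. The libraries were stranded per the labels' protocols, and whether the counting used strand is not given in the sources used here. The other 5 genes have between 5 and 15 merged exons, and none of the 6 overlaps a gene on its own strand.

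Of 27 listed genes of the AP-1 family and its relatives 15 were measured, with a median difference of -0.73, 3 at least 4-fold higher in the thymus tumour and 0 in the gut tumour. Without Jund the median of the other 14 was -0.44, and 2 of them, Bach2 and Atf5, were at least 4-fold apart. Bach2, a repressor that competes with AP-1 in lymphocytes, was at 0.802 and 22.1 FPKM (-3.68). The stress factor Atf5 was at 5.99 and 66.3 FPKM (-3.27). Fos, the classic partner of Jun proteins, was at 7.63 and 18.2 FPKM (-1.15). Batf, a partner of Jun proteins in activated lymphocytes, was at 42.9 and 47.2 FPKM (-0.14), and its difference became positive with the same total (0.39) or standard scores (0.29). Crem was at 37.1 and 112 FPKM (-1.56), Mafg at 9.54 and 24.4 FPKM (-1.27), Atf7 at 32.2 and 61.2 FPKM (-0.90) and Atf2 at 91.4 and 153 FPKM (-0.73). In the other direction Bach1 was at 10.6 and 2.06 FPKM (1.93), Atf6 at 35.8 and 10.1 FPKM (1.72), Mafk at 45.5 and 16.1 FPKM (1.44), Atf1 at 57.9 and 39.9 FPKM (0.52), Atf4 at 155 and 128 FPKM (0.28) and Creb1 at 46.5 and 40.2 FPKM (0.21). Bach1 and Atf6 passed 4-fold with the same total or with standard scores, and Bach1 also with a pseudocount of 0.1. Jun and Junb were not among the genes measured. Of 12 listed MAP kinases of the routes to AP-1 9 were measured and 0 were at least 4-fold apart.

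Klf6, a zinc finger factor of the Krüppel-like family that is induced early by many stimuli, was the lowest of the 6 genes in the gut tumour. It was at 0.326 FPKM there and 10.5 FPKM in the thymus tumour, a difference of -3.12. The ratio of 32.3 on the FPKM scale rests on a level that only 51 of the 8249 genes, Klf6 included, did not exceed in the gut tumour. Its difference was -1.54, short of the threshold, with a pseudocount of 5, and -4.64 with one of 0.1. All 5 measured members of the family, of 17 listed, were on the same side as deposited, with a median of -1.32 and 2 at least 4-fold higher in the thymus tumour. Klf13, the other of these, was at 1.36 and 59.5 FPKM (-4.68), a wider difference than that of any of the 6 genes. Klf16 was at 3.76 and 10.9 FPKM (-1.32), Klf7 at 1.66 and 3.07 FPKM (-0.62) and Klf2, a quiescence and trafficking factor of T cells, at 67.6 and 69.6 FPKM (-0.04). The difference of Klf2 became positive with the same total (0.49) or standard scores (0.29), and that of Klf7 with standard scores (0.40).

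The other listed genes of the pathway and of T cell activation were far apart about as often as all genes. The 16 gene lists held 288 distinct genes, of which 168 were measured. Of the 162 that are not among the 6, 14 (8.64%) were at least 4-fold higher in the gut tumour and 24 (14.8%) in the thymus tumour, beside 7.84% and 12.0% of all genes. Their median difference was -0.30.

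**Figure D3:**
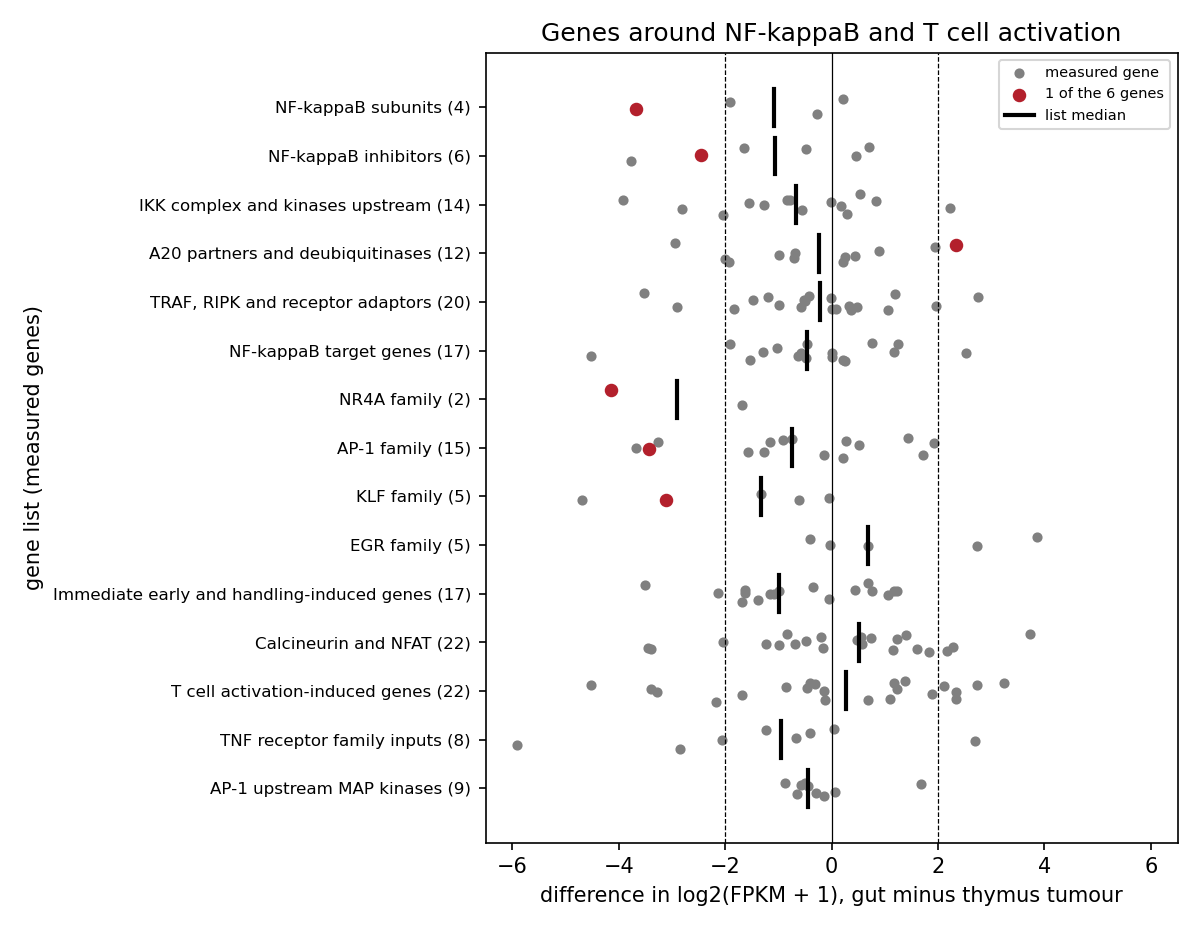
Difference in log2(FPKM + 1), gut tumour minus thymus tumour, for each measured gene of 15 of the lists, with the number measured in brackets. Red points are the 6 genes, grey points the others, black bars the list medians and dashed lines the 4-fold threshold. List medians include the 6 genes. They run from -2.91 for the NR4A family, with 2 genes, Nr4a3 and Nr4a1, to 0.68 for the EGR family.

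At the receptors that feed NF-kappaB, 8 of 30 listed genes were measured, 1 at least 4-fold higher in the gut tumour and 3 in the thymus tumour, with a median of -0.95. Tnfrsf1a, the main receptor for TNF, was at 8.57 and 39.1 FPKM (-2.06), a call lost with a pseudocount of 5, the same total or standard scores. Tnfrsf1b, the other TNF receptor, was at 28.2 and 27.2 FPKM, and Tnfrsf21, death receptor 6, at 26.8 and 64.2 FPKM. The death receptor Tnfrsf10b was at 0.434 and 85.7 FPKM (-5.92), Tnfrsf13b, which encodes TACI, a receptor of B cells, at 7.57 and 60.7 FPKM (-2.85), and the T cell costimulator Cd27 at 269 and 40.9 FPKM (2.69). Tnf itself was at 20.4 and 2.72 FPKM (2.52), on the side of Tnfaip3, although with a pseudocount of 5 it was no longer 4-fold apart.

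Among adaptors next to these receptors, 20 of 26 were measured, 1 at least 4-fold higher in the gut tumour and 2 in the thymus tumour. Tradd and Fadd, which bind the death domains of TNF receptors, were at 5.91 and 78.3 FPKM (-3.52) and at 4.25 and 38.2 FPKM (-2.90). Traf5 was at 47.4 and 6.19 FPKM (2.75). The abundant adaptors lay closer, with Irak1 at 128 and 172 FPKM, Traf2 at 54.8 and 78.8 FPKM and Traf3ip3 at 105 and 45.4 FPKM. The median of -0.22 turned to 0.31 with the same total and 0.33 with standard scores.

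Enzymes between the antigen receptor and IKK lay on both sides. Prkcb, a protein kinase C of antigen receptor signalling in B cells, was at 226 and 35.3 FPKM (2.64), and Prkcq, its T cell counterpart, at 71.8 and 41.9 FPKM (0.76). Sharpin, a subunit of the linear ubiquitin ligase, was at 158 and 60.2 FPKM (1.37), whereas its catalytic subunit Rnf31 was at 7.08 and 37.2 FPKM (-2.24), a call lost with a pseudocount of 5, the same total or standard scores.

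Of the IKK complex and the kinases upstream of it 14 of 17 were measured, with a median of -0.67, 1 at least 4-fold higher in the gut tumour and 3 in the thymus tumour. The catalytic subunits Ikbkb and Chuk were at 94.3 and 83.7 FPKM (0.17) and at 71.7 and 175 FPKM (-1.28). Map3k7, which encodes the IKK kinase TAK1, was at 12.4 and 93.4 FPKM (-2.81), its adaptor Tab3 at 1.58 and 9.66 FPKM (-2.05) and the related adaptor Tab2 at 257 and 176 FPKM (0.54). Map3k3 was at 11.9 and 1.76 FPKM (2.23) and Map3k1 at 0.0131 and 14.4 FPKM (-3.92). The calls of Map3k1 and Map3k3 were lost with a pseudocount of 5, and that of Tab3 with a pseudocount of 5, the same total or standard scores.

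Target genes of NF-kappaB other than the 6 were spread on both sides. Of 41 listed 17 were measured, 8 higher in the gut tumour and 9 in the thymus tumour, with 1 at least 4-fold apart in each direction. Il2ra, the alpha chain of the interleukin 2 receptor, was at 5.91 and 157 FPKM (-4.52), and Tnf was the gene apart in the other direction. The anti-apoptotic regulator Cflar was at 148 and 206 FPKM, Tnfaip8 at 195 and 193 FPKM and Myc at 229 and 100.3 FPKM. The median of -0.47 turned to 0.07 with the same total and 0.11 with standard scores.

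Immediate early genes, which handling of tissue can also induce, had 17 of 35 listed members measured, none of them among the 6, with a median of -0.996. Of these 11 were higher in the thymus tumour, 2 by at least 4-fold, and 6 were higher in the gut tumour, 0 by that much. The RNA-destabilising factor Zfp36l1 was at 1.51 and 27.4 FPKM (-3.50) and its relative Zfp36l2 at 284 and 136 FPKM (1.05). The antiproliferative gene Btg1 was at 35.1 and 157 FPKM (-2.13), a call lost with the same total or standard scores, and the kinase Sgk1 at 140 and 102 FPKM (0.45). The part of tissue handling in the values of Nr4a3, Jund and Klf6 was not tested.

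In the calcineurin and NFAT pathway, which antigen receptors use beside NF-kappaB, 22 of 28 genes were measured, 3 at least 4-fold higher in each tumour, with a median of 0.51. Rcan3 and Rcan1, feedback regulators of calcineurin, were at 61.3 and 3.72 FPKM (3.72) and at 28.5 and 5.09 FPKM (2.27), and the calcineurin inhibitor Cabin1 at 15.2 and 2.62 FPKM (2.17). The kinase Gsk3b, which drives NFAT out of the nucleus, was at 2.17 and 33.6 FPKM (-3.45), and the calcium channel Itpr2 at 10.02 and 114 FPKM (-3.38). With a pseudocount of 5 Rcan1 and Cabin1 were no longer 4-fold apart.

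Other genes of T cell activation also split. Of 38 listed 22 were measured, 11 on each side, with 5 at least 4-fold higher in the gut tumour and 4 in the thymus tumour, and a median of 0.28. The amino acid transporter chain Slc7a5 was at 87.5 and 8.34 FPKM (3.25), while Slc3a2, which encodes its heavy chain partner, was at 40.0 and 185 FPKM (-2.18), a call lost with the same total or standard scores. The surface protein Cd200 was at 4.20 and 54.0 FPKM (-3.40), the signalling inhibitor Spry2 at 0.0715 and 9.38 FPKM (-3.28) and the transferrin receptor Tfrc at 247 and 115 FPKM (1.09). With a pseudocount of 5 Spry2 was no longer 4-fold apart.

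Genes with levels most like those of each of the 6 were found by distance in the plane of the 2 log2(FPKM + 1) values. With 2 libraries this is likeness of level only, and between 17 and 84 of 7350 candidate genes lay within 0.5 of a given member. The nearest gene was Mtm1 for Relb (3.71 and 60.6 FPKM), Ftl1 for Nfkbia (27.2 and 148 FPKM) and Cmtm6 for Tnfaip3 (28.8 and 4.91 FPKM). It was Cpa6 for Nr4a3 (1.28 and 42.5 FPKM), Arnt for Jund (4.69 and 59.6 FPKM) and Ap3s2 for Klf6 (0.347 and 10.8 FPKM). Rcan1 was the next nearest to Tnfaip3, at a distance of 0.06.

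Differences of 4-fold were also common among genes of like level. Among the 3298 genes with a mean of the log2 values between 3 and 5, where Relb, Tnfaip3, Nr4a3 and Jund lie, 15.2% were at least 4-fold higher in the thymus tumour and 8.88% in the gut tumour. Among the 881 genes with a mean below 3, where Klf6 lies, the shares were 16.6% and 6.70%, and among the 2925 with a mean between 5 and 7, where Nfkbia lies, 9.57% and 8.14%. The direction of all 6 genes was the same under 6 other settings of pseudocount and scaling, and that of Relb, Nr4a3 and Jund stayed past 4-fold in each. The scaling factor, gut tumour over thymus tumour, was 1.04 by the median ratio, 1.02 by the upper quartile and 0.687 by the total. The total is a sum of FPKM in which the highest genes weigh most. The split of all calls was less stable. It went from 39.5% higher in the gut tumour as deposited to 65.1% with libraries rescaled to the same total and 66.1% with the authors' standard scores, under which the median over all genes was 0.57 and 0.48 in place of 0.05. Relative to that median the differences with the same total were -3.76 for Relb, -2.50 for Nfkbia, 2.26 for Tnfaip3, -4.29 for Nr4a3, -3.51 for Jund and -3.37 for Klf6.

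**Figure D4:**
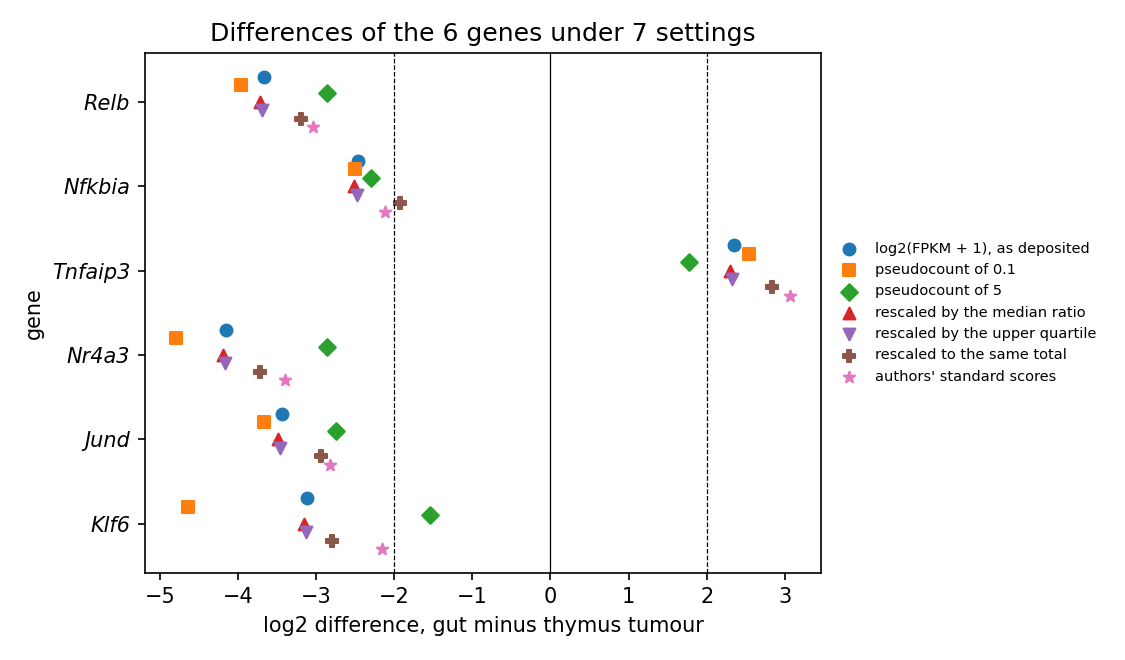
Log2 difference, gut tumour minus thymus tumour, of each of the 6 genes as deposited and under 6 other settings (symbols), with dashed lines at 4-fold. No symbol crosses 0, and those inside the dashed lines are Nfkbia with the same total at -1.93, and Tnfaip3 at 1.78 and Klf6 at -1.54 with a pseudocount of 5.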

How the data were processed

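RNA was measured in 2 tumour libraries, 1 per group. The submitters' processing notes name GATK, Picard, Cufflinks and TopHat and the mouse build mm9, and the sources used here give no version, annotation or gene filter. The values deposited by the authors under an FPKM header were read as log2(FPKM + 1). This scale is inferred from the values, the largest of which is 20.65. The smallest in the gut tumour, taken as log2, comes to 6.99 times the double-precision unit, which is close to whole. Taken as a natural log it comes to 10.09 times. The smallest in the thymus tumour comes to 6305.7 times as log2. It is given to too few digits to tell whether that multiple is whole. The authors also deposited a standard score, a straight line of the log2 value in each library, with SDs of 2.84 and 2.43, here put back on a log2 scale with their mean.

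FPKM, differences, list counts and medians were computed with Python 3.11.15 and pandas 2.3.3, without a test, and the counting was tested on simulated data. A filter of at least 1 FPKM in at least 1 library left out 4 genes and kept all 6 members. Promoters are from RefSeq (GRCm38.p6), and exons and overlaps from GENCODE M21. The members, lists, thresholds and alternatives were chosen with earlier results of these data known. Named genes are the 6, all measured members of the NF-kappaB subunit and inhibitor, NR4A, AP-1, KLF and EGR lists, up to 5 of each other list with the widest differences of at least 2 and up to 3 with the highest mean, and the genes nearest in level to each member. Some named genes and 1 list are not reported here. Alternatives were other pseudocounts, filters, thresholds and scalings.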

Additional observations from a re-analysis of the deposited data

How the results depend on the processing

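As deposited, 1637 genes were at least 4-fold apart, 646 higher in the gut tumour and 991 in the thymus tumour. With a pseudocount of 5 these were 1067, 416 and 651, at 2-fold 4139, 2036 and 2103, and at 8-fold 583, 165 and 418. Rescaling to the same total gave 1197 and 641 by direction, and the standard scores 1218 and 624. Other filters, a pseudocount of 0.1 and the other scalings moved these counts by less than 1.5 times. Of 36 alternative values for single members, 33 kept their direction and their side of the 4-fold threshold, and 3 kept their direction only. Of 128 alternative values for list medians, 127 stayed on their side of the threshold. The KLF median passed it (-2.22) with a filter at 5 FPKM, which leaves out Klf7. As deposited only the NR4A median was past the threshold, so this count says little about the others. The medians of the A20 partners, the receptor adaptors, the NF-kappaB targets and the MAP kinases changed sign in some settings. For counts of listed genes apart, 122 alternative values stayed within 1.5 times and 38 did not on the side of the gut tumour, and 132 and 28 on that of the thymus tumour. No paired analysis was possible because each group is 1 library. Depth is unknown, which limits low values such as those of Klf6 and Nr4a3 in the gut tumour most.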
